A study of Mus musculus with 17 samples.

Results

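The comparison described here asks what blocking the interleukin-10 receptor (IL-10R) did to the response of blood-forming cells 24 h after lipopolysaccharide (LPS). It sets 3 libraries of mice given LPS with an IL-10R blocking antibody against 3 libraries of mice given LPS without it. These 6 of the 17 libraries of the series were chosen by their titles, not by any measured value. The other 11 are 5 libraries of mice given phosphate-buffered saline (PBS), titled day 0, and 3 of each treatment at 72 h. All groups are wild-type C57BL/6J mice, an inbred strain with no engineered allele, and the injections were intraperitoneal. The design text gives 5 micrograms of LPS and 100 micrograms of antibody, the sample protocol gives the same figures in milligrams, and neither was taken as right. No control antibody is named for the LPS group, so an effect of the blockade and an effect of injected antibody cannot be told apart. Polyadenylated RNA was sequenced from hematopoietic stem and progenitor cells (HSPC) sorted from the marrow. The labels do not say whether the libraries of a group come from separate mice. P-values therefore measure the spread between libraries of the same group, taken over all 17 libraries, and this spread may in part be technical.

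LPS is a component of the outer membrane of Gram-negative bacteria. It is sensed by Toll-like receptor 4 (Tlr4) with Cd14 and Ly96, and the signal runs through MyD88 and TRIF to NF-kB and to interferon regulatory factors. Interleukin-10 is secreted by immune cells and binds a receptor made of Il10ra, the ligand-binding chain, and Il10rb, a chain shared with other cytokines. That receptor signals through the kinases Jak1 and Tyk2 to the transcription factor Stat3, which induces Socs3 and Bcl3 and restrains inflammatory transcription in macrophages. HSPC carry Tlr4 and can respond to LPS themselves or to the cytokines that other marrow cells release.

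The 6 libraries held between 12989621 and 16006001 counts, and 14920 of 35321 gene symbols had enough counts to be tested. The label HSPC was checked on surface markers. Kit, the stem cell factor receptor, was at 228, 292 and 352 CPM (read counts scaled to library size) with LPS and 432, 275 and 259.5 CPM with antibody, and Cd34, Flt3, Ly6a (Sca-1) and Cd93 were present in all 6 libraries. Cd3e, which defines T cells, was at 0 to 0.255 CPM with LPS and at 0.163 to 0.560 CPM with antibody. Cd3e does not stand for the whole list of 14 T and NK cell markers. That list summed to 132 to 306 CPM with LPS and 163 to 238 CPM with antibody. Its member Nkg7 was at 246, 102 and 97.2 CPM with LPS and 59.0, 118 and 202 CPM with antibody. LPS library 1 had the lowest scaling factor (0.799) and the fewest genes detected (16431), and in the count table the names of both 24 h libraries numbered 1 are written in another style than those numbered 2 and 3. What this style stands for is not stated.

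Blocking IL-10R changed no gene past the threshold at 24 h. Of 14920 genes tested by edgeR's quasi-likelihood test, 0 (0%) had a Benjamini-Hochberg adjusted p below 0.05, and the smallest adjusted p was 1. Unadjusted, 273 genes had p below 0.05, of which 212 (1.42%) were higher with antibody and 61 (0.409%) were lower. The 3 antibody libraries lay above all 3 LPS libraries for 280 genes (1.88%) and below them for 190 genes (1.27%). Without any difference, a p below 0.05 is met by a fraction of about 0.05 of genes. Groups of 3 and 3 libraries then lie apart, in either direction, with a chance of 0.1. The shares found here were smaller than both. Genes are not independent across 6 libraries, so such shares can lie far from these values without any difference. Nothing is concluded from them about an effect. DESeq2 called 1 gene and limma's voom with quality weights called 0, with 290 and 161 genes at an unadjusted p below 0.05. The DESeq2 call, BC018473, rested on LPS library 3, at 122 CPM against 0.185 and 0 CPM in the other LPS libraries and 0 in every antibody library. Its DESeq2 adjusted p was 0.00303, edgeR's was 1, and over all alternatives it ran from 0.00303 to 1. At 72 h the same contrast called 2256 genes (15.1%), 1289 higher and 967 lower, in the same fit. With upper-quartile scaling the split was 968 higher and 1315 lower. The 72 h count was 797 without LPS library 1, 1235 without LPS library 2 and 1266 without antibody library 1 of that time.

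The data limit how large an undetected change can be. For 10601 genes (71.1%) the 95% interval of the log2 difference lay between -1 and 1, which is to say that a change of 2-fold or more was outside the interval. Among genes at or above the median level of expression this held for 7048 genes (94.5%). The median standard error (SE) of a log2 difference was 0.234 and the median distance from the estimate to the end of its interval was 0.496. The intervals rest on 1 estimate of spread per gene over all 17 libraries, which need not be that of the 6 compared. A standard deviation of log2 CPM above 1 was met by 7.63% of genes with antibody and 2.67% with LPS at 24 h. Over the 5 groups this share ran from 2.14% with PBS to 9.38% with antibody at 72 h. A further 533 genes (3.57%) had an estimate of 2-fold or more, 451 of them higher with antibody and 82 lower, none past the threshold. The split into 2 groups held 11.6% of the variation between the 6 libraries, with 20% of the degrees of freedom, against 34.9% for the same split at 72 h.

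**Figure D1:**
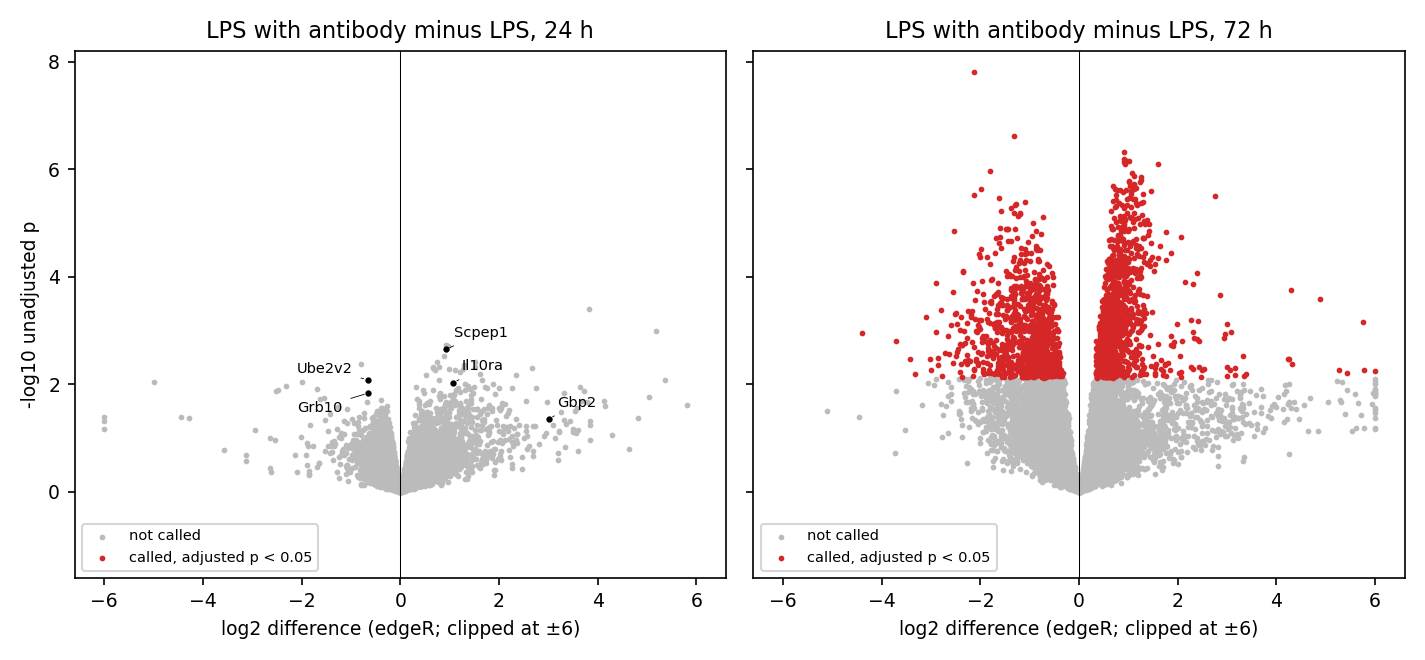
Each point is 1 of 14920 genes, with the log2 difference between LPS with antibody and LPS on the x axis (values beyond 6 drawn at 6) and the negative log10 of the unadjusted edgeR p on the y axis, at 24 h on the left and 72 h on the right. Red points passed an adjusted p of 0.05, of which there are 0 at 24 h and 2256 at 72 h.

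The receptor that the antibody blocks was measured first. Il10ra (chromosome 9, 45253837 to 45269149 in GRCm38.p6) was at 11.2, 22.2 and 14.1 CPM in LPS libraries 1, 2 and 3 and at 47.5, 17.6 and 35.0 CPM in antibody libraries 1, 2 and 3. Antibody libraries 1 and 3 were above every LPS library, and antibody library 2 fell between LPS libraries 3 and 2, so the groups overlapped by 1 library. The log2 difference was 1.07 (SE 0.362, 95% interval 0.30 to 1.84, unadjusted p = 0.00948, edgeR adjusted p = 1). In PBS libraries Il10ra ranged from 37.6 to 78.1 CPM. LPS alone was at -1.81 relative to PBS on the log2 scale (edgeR adjusted p = 0.00136), and LPS with antibody was at -0.74 (edgeR adjusted p = 0.106), both against the same PBS libraries. The antibody binds the receptor protein, and a transcript level says nothing of how much receptor was blocked. Il10rb (chromosome 16, 91406157 to 91425834) was at 42.0, 42.2 and 39.3 CPM with LPS and 42.5, 38.1 and 66.1 CPM with antibody. Antibody library 3 stood above the LPS range and antibody library 1 at its upper edge, and the log2 difference was 0.25 (interval -0.25 to 0.74). Il10 itself had too few reads to be tested, with 0, 0 and 1 counts under LPS and 8, 2 and 0 counts under antibody.

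No gene downstream of the receptor passed the threshold. Of 17 genes listed for IL-10R and STAT3 signalling, all tested, 0 were called, 16 had a higher and 1 a lower mean with antibody, and the median log2 difference was 0.21, beside -0.0046 over all genes tested. Of all genes tested, 7333 were higher and 7580 lower with antibody. Stat3 was at 151, 148 and 168 CPM with LPS and 234, 166 and 152 CPM with antibody (log2 difference 0.24, interval -0.15 to 0.63). Antibody library 1 was the highest of the 6 and antibody library 3 lay inside the LPS range. Socs3, the feedback inhibitor that STAT3 induces, was at 8.34, 9.06 and 19.3 CPM with LPS and 17.3, 22.9 and 10.2 CPM with antibody (log2 difference 0.45, interval -0.38 to 1.28). Its groups overlapped. Bcl3, an atypical IkB protein, was at 17.2, 10.2 and 16.1 and 14.1, 15.6 and 10.6 CPM, with a log2 difference of -0.11 (interval -0.72 to 0.50). Jak1 and Tyk2, the receptor's kinases, differed by 0.010 and 0.12 on the log2 scale. Ddit4, an inhibitor of mTORC1, showed the widest difference of the list at 1.23, from 5.47, 11.1 and 17.2 CPM with LPS to 54.4, 16.4 and 8.78 CPM with antibody. There, antibody library 1 stood alone and antibody library 3 was below LPS libraries 2 and 3.

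**Figure D2:**
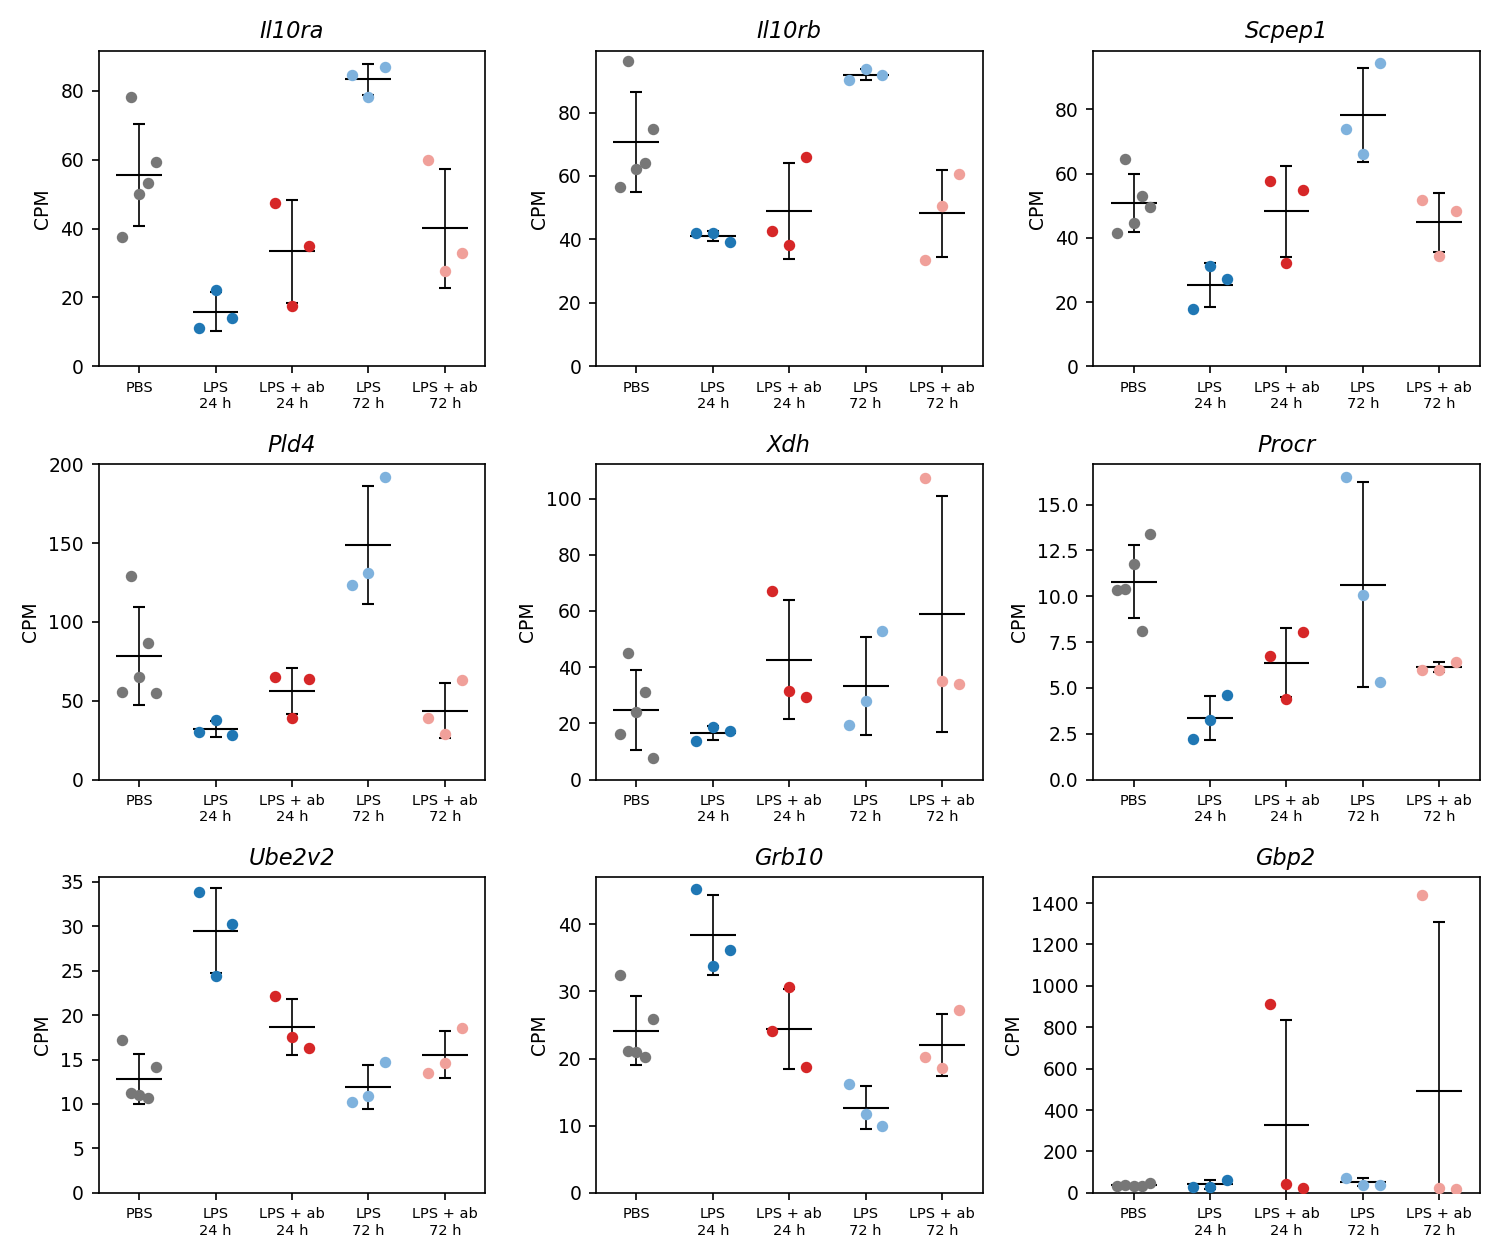
Each point is 1 library, with its CPM on the y axis and the 5 groups on the x axis (ab, antibody). Lines and bars are means and SD (n = 5 for PBS, 3 for the other groups), with bars cut off at 0, and at 24 h Il10ra, Xdh and Gbp2 were highest in antibody library 1, with Gbp2 at 914 CPM there against 41.9 and 24.6 CPM in the other antibody libraries.

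Some genes, 280 (1.88%), had 3 antibody libraries above 3 LPS libraries. Among the 8 with the smallest unadjusted p at or above median expression were Scpep1, Tcn2, Pld4, Xdh, Lair1, Unc93b1 and Lipe. Each passed an unadjusted p of 0.05, and none passed after adjustment. The rule asked for groups that lie apart and for a small p, so neither is independent support for a gene. Scpep1 (chromosome 11, 88924020 to 88955442), a serine carboxypeptidase, went from 17.8, 31.2 and 27.0 CPM to 57.8, 32.02 and 55.0 CPM. The margin between the groups was narrow, since antibody library 2 was just above LPS library 2, and the log2 difference was 0.93 (SE 0.254, interval 0.39 to 1.46, unadjusted p = 0.00225). Scpep1 overlaps the antisense gene Scpep1os in the RefSeq annotation, and the use of strand in counting is not given in the sources used here, so reads of the 2 genes cannot be told apart.

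Unc93b1, the chaperone that carries endosomal Toll-like receptors to their compartment, was at 132, 133 and 117 CPM with LPS and 179.7, 149 and 181 CPM with antibody (log2 difference 0.42, interval 0.023 to 0.81). Pld4, an endolysosomal exonuclease, was at 30.0, 37.7 and 28.1 CPM and 65.3, 39.1 and 64.0 CPM (log2 difference 0.81, interval 0.092 to 1.54). In both genes antibody libraries 1 and 3 stood well above the LPS range and antibody library 2 was closest to it. Tcn2, which carries cobalamin, was at 36.5, 22.8 and 35.7 CPM and 53, 36.6 and 48.9 CPM (log2 difference 0.55, interval 0.087 to 1.00). Its lowest antibody library was above the highest LPS library by less than 1 CPM. Xdh, which makes uric acid from xanthine, had 13.8, 18.5 and 17.3 CPM with LPS and 67.1, 31.4 and 29.5 CPM with antibody (log2 difference 1.37, interval 0.13 to 2.60). The PBS libraries, at 7.51 to 44.9 CPM, spanned a range that held all 3 LPS libraries and antibody libraries 2 and 3. Lair1, an inhibitory receptor for collagen, and Lipe, hormone-sensitive lipase, differed by 0.44 and 0.51 on the log2 scale, each with antibody library 1 highest.

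Other genes, 190 (1.27%), had 3 antibody libraries below 3 LPS libraries. The 8 genes named by the same rule were Ube2v2, Grb10, Tgif2, Gm21972, Eed, Sapcd2, Lzic and Dnlz, all with unadjusted p below 0.05 and an edgeR adjusted p of 1. Ube2v2, a cofactor in the building of lysine-63 ubiquitin chains, was at 33.8, 24.4 and 30.3 CPM with LPS and 22.2, 17.5 and 16.3 CPM with antibody. As the rule required, every antibody library was below every LPS library (log2 difference -0.66, SE 0.218, interval -1.12 to -0.20). PBS libraries, at 10.6 to 17.2 CPM, were lower than all LPS libraries, and LPS alone was at 1.20 relative to PBS on the log2 scale (edgeR adjusted p = 0.000597). Grb10, an adaptor that dampens insulin and growth factor receptors, was at 45.2, 33.9 and 36.2 CPM and 24.1, 30.6 and 18.7 CPM (log2 difference -0.65, interval -1.15 to -0.15). Eed, a core subunit of the polycomb repressive complex PRC2, was at 103, 87.8 and 85.9 CPM and 65.7, 81.1 and 81.6 CPM (log2 difference -0.27, interval -0.51 to -0.039). In Grb10 and Eed, LPS library 1 was the highest of the 6. Tgif2, a homeobox repressor, differed by -0.38, Sapcd2 by -0.37, Lzic by -0.31 and Dnlz by -0.25 on the log2 scale. Gm21972 was at 71.7, 30.6 and 31.5 CPM with LPS and 29.5, 26.2 and 28.2 CPM with antibody, so that LPS library 1 carried most of its difference of -0.67.

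Sensing of LPS and the NF-kB response showed no change past the threshold. Of 16 genes for LPS sensing, 11 were higher and 5 lower with antibody, with a median log2 difference of 0.044 and 0 called. Tlr4 was at 13.7, 14.4 and 13.7 CPM with LPS and 10.4, 12.96 and 16.3 CPM with antibody (log2 difference -0.074, interval -0.72 to 0.58), and Cd14, its co-receptor, was at 5.65, 2.82 and 3.83 and 3.08, 3.20 and 7.07 CPM (log2 difference 0.12). The antibody range contained the LPS range for Tlr4. Of 16 genes for NF-kB subunits and feedback, 14 were higher and 2 lower, with a median of 0.15 and 0 called. Nfkbia, the inhibitor that NF-kB itself induces, was at 22.2, 21.3 and 34.1 CPM with LPS and 53.1, 28.3 and 20.8 CPM with antibody (log2 difference 0.40, interval -0.46 to 1.26). Tnfaip3 (A20), a ubiquitin-editing inhibitor of the pathway, was at 7.97, 9.96 and 14.2 and 24.6, 11.2 and 9.84 CPM (log2 difference 0.51, interval -0.47 to 1.49). In both genes antibody library 1 was highest and antibody library 3 was inside the LPS range or below it. Irak2 and Birc3, an IRAK family member and a ubiquitin ligase of these pathways, had differences of 0.59 and 0.46, with antibody library 1 again highest.

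Most cytokine genes had few reads. Of 19 genes listed, 15 were tested, 11 of them higher and 4 lower with antibody, and 0 were called. The median log2 difference was 0.65 with all 3 antibody libraries and -0.38 without antibody library 1, and any value of Il12b above the median leaves the first unchanged. Tnf was at 2.97, 1.99 and 3.19 CPM with LPS and 6.65, 4.295 and 2.60 CPM with antibody, and Il6 at 1.21, 0.618 and 0.702 and 1.40, 0.703 and 0 CPM. The chemokines that interferons induce stood out in 1 library. Cxcl9 was at 13.9, 5.42 and 20.9 CPM with LPS and 435, 18.0 and 0.407 CPM with antibody, and Cxcl10 at 9.27, 3.85 and 8.48 and 55.1, 6.72 and 1.30 CPM. Antibody library 1 was far above the other 5, and antibody library 3 was the lowest of the 6 for both genes. Il12b, a subunit of interleukins 12 and 23, was listed at 0 in every LPS library and at 1.26, 0.234 and 0 CPM with antibody, and no fold is given. Tgfb1 had 380.0, 239 and 274 CPM and 240.4, 278 and 274 CPM, with the groups overlapping.

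The largest median difference of the 34 gene lists was that of GTPases that interferons induce, and it rested on antibody library 1. The guanylate-binding proteins (Gbp) and immunity-related GTPases (Igtp, Irgm, Iigp and Tgtp genes) are cell-autonomous defence proteins that attack the vacuoles of intracellular pathogens, and both interferon types induce them. All 15 listed genes had a higher mean with antibody, with a median log2 difference of 1.55, yet 0 were called and 2 had an unadjusted p below 0.05. Over all 14920 genes tested, antibody library 1 was the highest of the 6 libraries for 3701 genes and antibody library 3 the lowest for 2557. In all 15 listed genes antibody library 1 was the highest of the 6, and in 12 antibody library 3 was the lowest. The promoters of 3 of them, whose values follow, are shown to give the letters at which interferon-activated factors could bind, from 100 bases before to 20 bases after the RefSeq start on the gene's strand (GRCm38.p6: Gbp2 at chr3:142620563-142620682 on the plus strand, Igtp at chr11:58199456-58199575 on the plus strand, Tgtp1 at chr11:48992227-48992346 on the minus strand). Capitals mark matches to GAAANNGAAA, the core of the interferon-stimulated response element that IRF proteins bind, and to TTCNNNGAA, the site that STAT dimers bind, searched on both strands.
Gbp2: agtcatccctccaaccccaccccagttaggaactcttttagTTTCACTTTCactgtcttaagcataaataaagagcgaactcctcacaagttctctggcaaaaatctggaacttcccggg
Igtp: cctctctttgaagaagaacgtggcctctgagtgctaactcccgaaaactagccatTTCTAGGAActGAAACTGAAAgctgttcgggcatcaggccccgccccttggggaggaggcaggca
Tgtp1: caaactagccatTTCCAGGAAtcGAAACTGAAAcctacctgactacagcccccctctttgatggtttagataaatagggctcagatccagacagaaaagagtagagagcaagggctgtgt
In the printed, gene-strand orientation the first motif is read on the opposite strand in Gbp2 and on the printed strand, next to the second, in Igtp and Tgtp1. Of 32851 promoters of 300 bases in the RefSeq table, 3.44% hold the first motif and 8.30% the second. A match describes these letters and does not show binding.

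Gbp2 was at 29.7, 27.6 and 64.0 CPM with LPS and at 914, 41.9 and 24.6 CPM with antibody. Antibody library 1 was thus more than 10 times any other 24 h library, while antibody libraries 2 and 3 were inside or below the LPS range. The log2 difference of 3.01 had an interval of 0.084 to 5.94 (unadjusted p = 0.0445, edgeR adjusted p = 1), and without antibody library 1 it was -0.28. Igtp was at 59.5, 51.7 and 95.9 CPM with LPS and 507, 69.1 and 31.9 CPM with antibody. Iigp1 was at 12.5, 20.3 and 31.5 and 522, 22.9 and 5.77 CPM. Tgtp1 was at 26.9, 23.4 and 40.6 and 391, 33.3 and 10.5 CPM, with reads that may be shared with the near-identical Tgtp2. The same order held in each, with antibody library 1 highest, antibody library 2 inside the LPS range and antibody library 3 lowest. Irgm1, which controls autophagy of vacuoles, was at 97.8, 97.2 and 149.5 and 409, 107 and 63.1 CPM. Over the list, the mean log2 CPM was 4.48 to 5.19 in the LPS libraries, 3.67 to 7.88 in the antibody libraries and 4.87 to 5.59 in PBS. Without antibody library 1 the median of the 15 log2 differences was -0.32 and 3 of 15 were higher.

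A list of 20 tested genes of the type I interferon response followed the same order of libraries. Of these, 18 were higher and 2 lower with antibody, with a median log2 difference of 0.67 and 0 called. In 19 of 20 antibody library 1 was highest, and in 18 of 20 antibody library 3 was lowest. Irf7, the factor that amplifies interferon production, was at 106, 61.5 and 163 CPM with LPS and 453, 84.3 and 7.80 CPM with antibody (log2 difference 0.72, interval -1.62 to 3.06). Isg15, a ubiquitin-like modifier, was at 52.0, 24.1 and 54.1 and 172, 35.9 and 4.63 CPM. Zbp1, a sensor of Z-form nucleic acids, was at 36.7, 16.3 and 50.5 and 262, 33.4 and 2.44 CPM. In these genes the LPS libraries lay between antibody library 1 above and antibody library 3 below. Without antibody library 1 the median was -0.95 and 0 of 20 were higher, and with all libraries it was -0.61 with voom and -0.086 with the replicate block. At 72 h, antibody library 1 was again the highest of its 6 for 20 of 20 interferon genes and 15 of 15 GTPases, with Gbp2 at 1437, 25.04 and 19.9 CPM in the antibody libraries and 73.2, 39.9 and 37.6 CPM in the LPS libraries. How often antibody library 1 was highest at 72 h over all tested genes was not counted. At that time it was highest for 16 of 17 erythroid markers and for 0 of 73 ribosomal protein genes. The 72 h libraries are other samples than those at 24 h, and the labels do not say whether the number 1 marks anything they share.

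**Figure D3:**
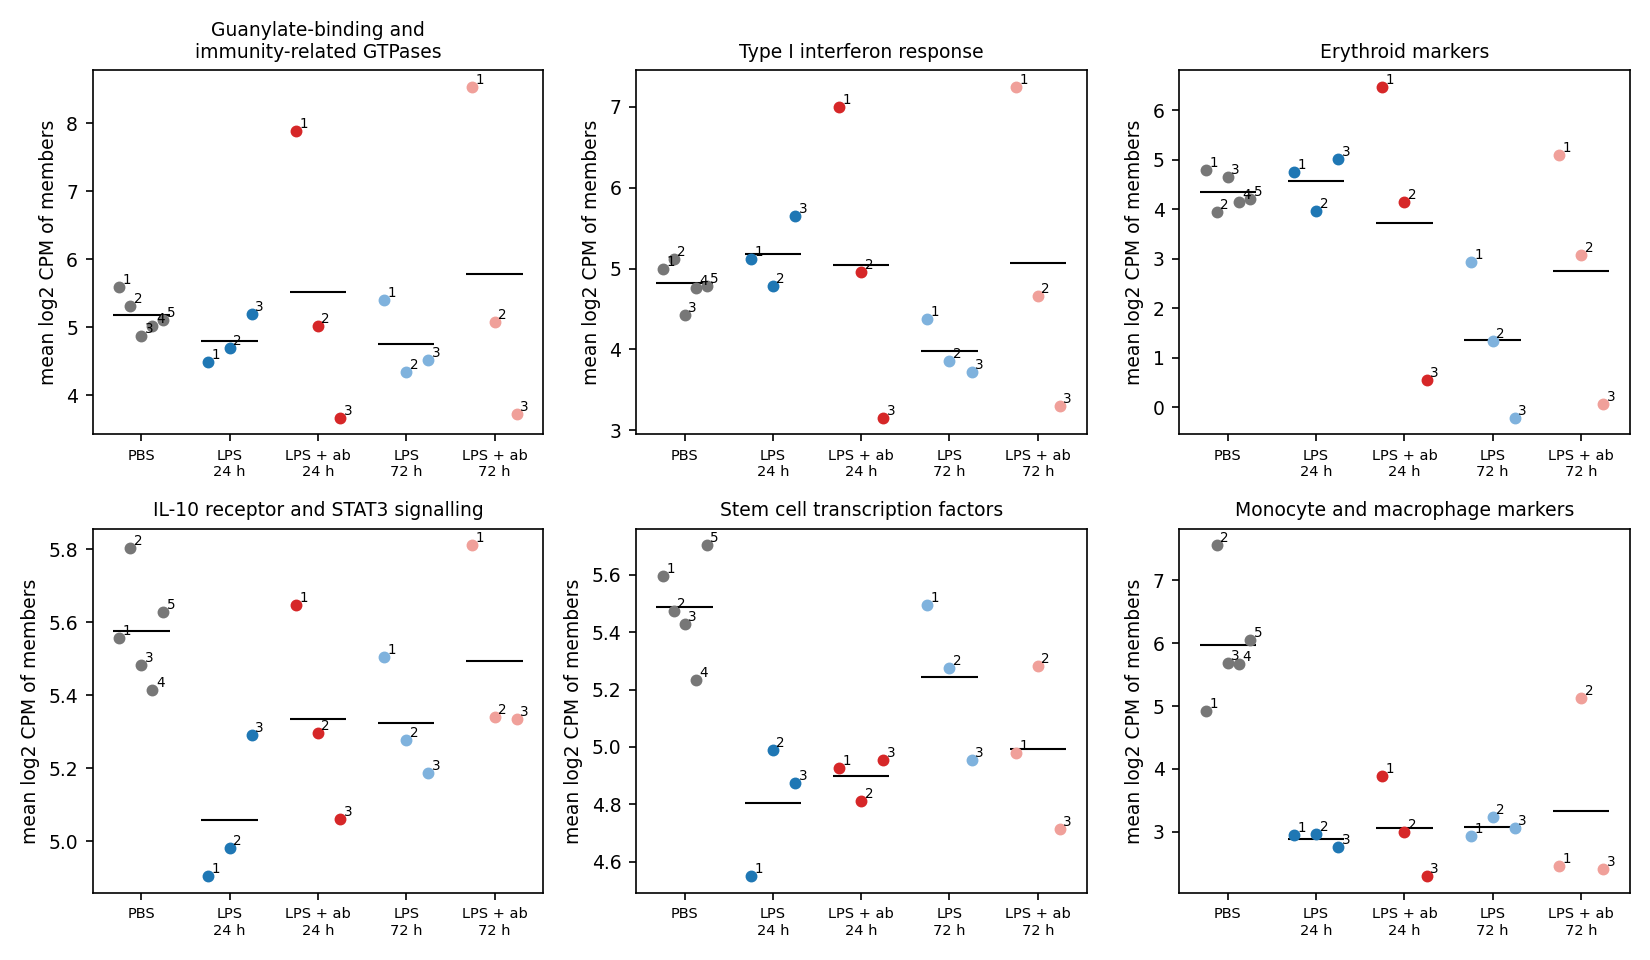
Each point is 1 library, numbered as in its title, with the mean log2 CPM of a gene list on the y axis, the 5 groups on the x axis (ab, antibody) and a line at the group mean. Antibody library 1 at 24 h is the highest and antibody library 3 the lowest of the 6 libraries at 24 h in the interferon, GTPase and erythroid panels.

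Red cell genes varied in the same libraries. Erythroid markers follow commitment to the red cell lineage, which shares its early steps with megakaryocytes. Of 17 tested, 15 were higher and 2 lower with antibody, with a median log2 difference of 0.29 and 0 called. Antibody library 1 was the highest of the 6 in 16 of 17 and antibody library 3 the lowest in 16 of 17. Gata1, the master regulator of the lineage, was at 65.0, 31.4 and 53.8 CPM with LPS and 128, 38.5 and 5.45 CPM with antibody (log2 difference 0.20, interval -1.88 to 2.27). Car1, carbonic anhydrase 1, was at 430.1, 208 and 490.1 and 1111, 250.1 and 7.32 CPM, and Ermap, an erythroid membrane protein, at 81.3, 59.3 and 144 and 296, 80.3 and 0.407 CPM. Hba-a1, an alpha globin, was at 15.8, 7.14 and 12.3 and 65.3, 3.59 and 0 CPM. The summed level of the list was 967 to 2254 CPM with LPS, 287 to 4167 CPM with antibody and 669 to 1122 CPM with PBS. Without antibody library 1 the median log2 difference was -1.23 and 2 of 17 were higher, and with all libraries it was -1.35 with voom and -0.48 with the replicate block. In bulk libraries, fewer cells of a type and less RNA per cell cannot be told apart. Whether the makeup of the sorted cells bears on the interferon genes was not tested.

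Other lists of cell type markers were read beside these. The 7 mast cell, basophil and eosinophil markers were all highest in antibody library 1 and all lowest in antibody library 3, with summed levels of 175 to 731 CPM with LPS and 78.7 to 1087 CPM with antibody. Megakaryocyte markers were higher in 2 and lower in 7 of 9, with a median of -0.28. Pf4, platelet factor 4, was at 9.36, 7.69 and 8.87 CPM with LPS and 6.23, 1.95 and 3.33 CPM with antibody, with the 3 antibody libraries below the 3 LPS libraries (log2 difference -1.16, interval -2.84 to 0.52). Late neutrophil granule genes were higher in 3 and lower in 8 of 11 tested, with a median of -0.26. This direction depended on the fit and on single libraries, since the median was 1.16 with voom and quality weights (11 of 11 higher), 1.49 without LPS library 2, 0.17 without antibody library 1, 0.21 without antibody library 3 and -2.04 without antibody library 2. S100a8, a calcium-binding protein of neutrophils, was at 172, 102 and 22.8 CPM with LPS and 21.2, 156 and 27.7 CPM with antibody (log2 difference -0.53, interval -2.97 to 1.91). Mpo, the myeloperoxidase of primary granules, was at 9987, 5645 and 7088 CPM and 2830.2, 6171 and 7742 CPM (log2 difference -0.44, interval -1.62 to 0.74), lowest in antibody library 1. Ly6g, which defines mature neutrophils, had too few counts to be tested, at 1, 6 and 0 counts with LPS and 1, 3 and 0 counts with antibody.

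No marker of mononuclear phagocytes or lymphocytes passed the threshold. The summed level of the monocyte and macrophage list was 386 to 621 CPM with LPS and 445 to 1041 CPM with antibody. Of 19 monocyte and macrophage markers 18 were higher with antibody, with a median of 0.61, 0 called and a median of -0.0040 without antibody library 1. C1qb, a complement protein of resident macrophages, was at 4.73, 2.27 and 3.83 CPM with LPS and 16.9, 1.80 and 0.407 CPM with antibody. Adgre1 (F4/80), which defines macrophages, was at 3.06, 3.78 and 3.25 and 6.65, 2.97 and 5.77 CPM. Both were highest in antibody library 1. F13a1 and Ccr2, which monocytes and their progenitors express, were instead lowest in antibody library 1. F13a1 was at 107, 208 and 94.4 CPM with LPS and 54.6, 203 and 538 CPM with antibody, and Ccr2 at 83.3, 181 and 68.5 and 36.3, 169 and 225 CPM. Fn1, fibronectin, was at 3.15, 9.13 and 4.98 and 13.7, 74.3 and 4.55 CPM, with antibody library 2 standing alone. B cell and plasma cell markers were higher in 12 of 15 and T and NK cell markers in 10 of 14, with 0 called in either. Plasmacytoid dendritic cell markers were higher in 7 of 8, with a median of 0.65. Siglech, which defines these cells, was at 0.649, 3.64 and 0.638 and 12.6, 6.79 and 1.46 CPM (log2 difference 2.06, interval 0.34 to 3.78, unadjusted p = 0.0220). Antibody libraries 1 and 2 were above the LPS libraries, and antibody library 3 was not. Endothelial and stromal markers were higher in 5 of 6 tested, with Cdh5, VE-cadherin, at 0.185, 0.687 and 0.383 and 4.90, 0.469 and 0.488 CPM. The part of other cell types in the 24 h differences was not tested.

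The stem and progenitor identity of the cells did not differ past the threshold. Of 23 stem cell transcription factors, 15 were higher and 8 lower with antibody, with a median of 0.10 and 0 called. Without LPS library 1 the split was 9 higher and 14 lower (median -0.012), and with voom it was 11 and 12 (median -0.0024). For 16 of 23 the 95% interval lay inside a 2-fold change. Mecom (Evi1), needed for stem cell self-renewal, was at 1.67, 7.55 and 3.76 CPM with LPS and 5.11, 7.34 and 10.7 CPM with antibody (log2 difference 0.81, interval -0.22 to 1.85). Hlf, a marker of the most immature cells, was at 19.8, 49.8 and 26.1 and 23.2, 26.6 and 62.3 CPM (log2 difference 0.22, interval -0.84 to 1.29). Both overlapped between the groups, with antibody library 3 the highest of the 6. With LPS alone Mecom was at -2.63 and Hlf at -2.08 on the log2 scale relative to PBS (edgeR adjusted p = 0.00104 and 0.00425), and with antibody they were at -1.81 and -1.86 relative to the same PBS libraries (edgeR adjusted p = 0.0123 and 0.0146). Of the 17 surface markers 9 were higher and 8 lower, with a median of 0.13. Procr (EPCR), which marks stem cells, was at 2.22, 3.23 and 4.59 CPM with LPS and 6.72, 4.37 and 8.05 CPM with antibody (log2 difference 0.92, interval 0.15 to 1.68, unadjusted p = 0.0215, edgeR adjusted p = 1). Only antibody library 2 fell inside the LPS range. Ly6a (Sca-1), which interferons also induce, was at 222, 108 and 156 and 529.9, 266 and 58.1 CPM, highest in antibody library 1 and lowest in antibody library 3. Cd34 was at 364, 454 and 377 and 234, 358 and 566 CPM, lowest in antibody library 1 and highest in antibody library 3 (log2 difference -0.045, interval -0.56 to 0.47).

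Of 20 hematopoietic cytokine receptors 16 were higher and 4 lower with antibody, with a median of 0.15 and 0 called. Il7r, the receptor that lymphoid progenitors need, was at 1.67, 6.52 and 4.08 CPM with LPS and 12.7, 5.54 and 6.34 CPM with antibody (log2 difference 0.99, interval -0.037 to 2.01). All 8 genes of lymphoid priming had a higher mean with antibody, with a median of 0.67 and 0 called. Dntt, terminal transferase, was at 30.5, 98.7 and 20.5 CPM with LPS and 57.6, 16.6 and 249 CPM with antibody. Antibody library 3 stood alone, and antibody library 2 was the lowest of the 6. LPS had lowered all 8 against PBS (8 of 8 called), where Dntt ranged from 598 to 938 CPM, and with antibody 7 of 8 were called lower against the same PBS libraries. In those comparisons 5616 genes (37.6%) were called for LPS and 3605 genes (24.2%) for LPS with antibody.

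No proliferation gene passed the threshold. Of 18 genes of G2/M, 16 had a lower and 2 a higher mean with antibody, with a median of -0.063, and the interval of all 18 lay inside a 2-fold change. Mki67, a proliferation antigen, was at 467, 755 and 653 CPM with LPS and 715, 606 and 629 CPM with antibody (log2 difference 0.057, interval -0.46 to 0.58). The antibody range lay inside the LPS range. Of 18 genes of DNA replication 16 were lower, with a median of -0.10, and the interval of all 18 lay inside a 2-fold change. E2f1, which drives S phase genes, was at 81.8, 63.8 and 61.3 and 58.3, 67.5 and 55.7 CPM (log2 difference -0.19, interval -0.47 to 0.090). Of 15 genes of quiescence and cell cycle entry 10 were higher, among them Cdkn1c (p57) at 0.278, 0.549 and 0.128 CPM with LPS and 0.560, 1.02 and 1.06 CPM with antibody, whose groups did not overlap (log2 difference 1.43, interval -0.40 to 3.26). These values are of few reads. Of 12 p53 targets 9 were higher, with a median of 0.10. Cdkn1a (p21) was at 21.9, 18.4 and 36.7 and 25.4, 25.9 and 23.9 CPM (log2 difference -0.034, interval -0.88 to 0.81), and Trp53inp1, a p53-induced regulator of autophagy, at 5.38, 16 and 11.4 and 30.9, 9.76 and 22.1 CPM (log2 difference 0.93, interval 0.053 to 1.81).

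No gene of the growth and biosynthesis lists passed the threshold. Of 73 ribosomal protein genes 72 were lower and 1 higher, by a median of -0.14 on the log2 scale, with 0 called and every interval inside a 2-fold change. That direction rested on LPS library 1, since without it the median was 0.24 and 73 of 73 were higher, and with voom the median was 0.063 and 64 were higher. The 12 genes of the amino acid stress response had a median of -0.17, with 5 higher and 7 lower, and of 0.060 without LPS library 1. Phgdh, the first enzyme of serine synthesis, was at 909, 630.2 and 608 CPM with LPS and 464, 613 and 623 CPM with antibody (log2 difference -0.34, interval -0.72 to 0.050). LPS library 1 was the highest of the 6 and antibody libraries 2 and 3 lay near LPS libraries 2 and 3. Of 10 genes of the Myc network 5 were higher and 5 lower. Ncl, nucleolin, was at 4339, 3099 and 3176 CPM with LPS and 2489, 3324 and 2485 CPM with antibody (log2 difference -0.35, interval -0.70 to -0.00512, unadjusted p = 0.0471), with antibody library 2 inside the LPS range.

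Antigen presentation and immediate early genes were read next, and none passed the threshold. All 9 genes of MHC class II presentation were higher with antibody, with a median of 0.34 and 0 called, and 8 of 9 were highest in antibody library 1. Cd74, the invariant chain, was at 176, 181 and 165 CPM with LPS and 453, 177 and 122 CPM with antibody. H2-Oa, a chain of a molecule that modulates peptide loading, was at 10.7, 9.61 and 10.2 and 19.7, 10.5 and 14.1 CPM (log2 difference 0.54, interval 0.051 to 1.02, unadjusted p = 0.0324). Without antibody library 1 the median of the 9 was -0.066 and 4 were higher. Of 11 genes of MHC class I presentation 10 were higher, with a median of 0.11 that was -0.19 without antibody library 1. Of 12 immediate early genes 10 were higher, with a median of 0.54 that was 0.10 without antibody library 1. Atf3, a stress-induced factor, was at 0.0927, 0.412 and 0.319 CPM with LPS and 8.05, 0.703 and 0 CPM with antibody. Tsc22d3 (GILZ), which glucocorticoids induce, was at 27.4, 26.7 and 36.0 and 112, 29.3 and 35.0 CPM (log2 difference 0.97, interval 0.052 to 1.88). Antibody library 1 was highest in both, and for Tsc22d3 antibody libraries 2 and 3 were inside the LPS range.

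**Figure D4:**
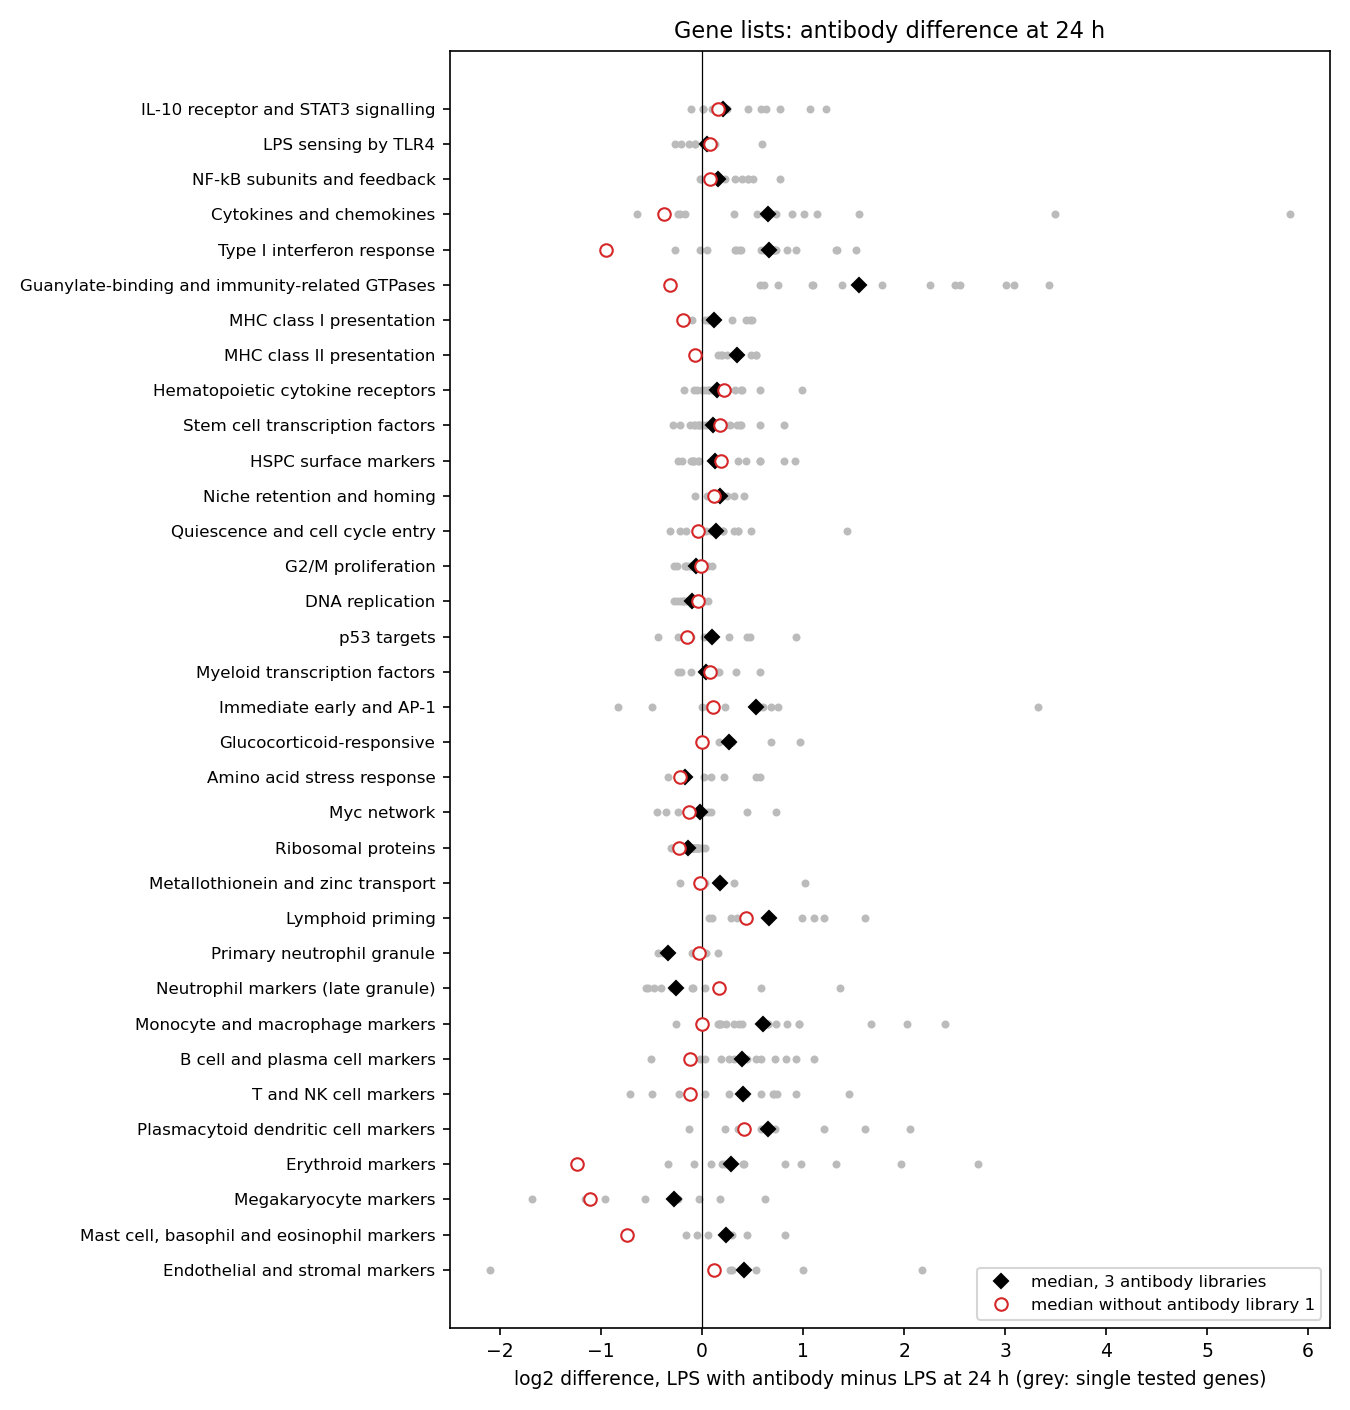
Grey points are single genes of 34 lists, with the log2 difference between LPS with antibody and LPS at 24 h on the x axis. Black diamonds are the medians with 3 antibody libraries and open red circles the medians without antibody library 1, and the interferon, GTPase and erythroid medians change sign between them.

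The direction of most list medians depended on the fit or on 1 library. Of 34 lists, 10 kept the sign of their median under all 13 alternatives and 24 did not. The median took the other sign for 14 lists without antibody library 1, 13 with voom and quality weights, 7 without LPS library 1 and 4 with the replicate block. The lists that kept it were those of IL-10R and STAT3 signalling, NF-kB, cytokine receptors, niche retention and homing, immediate early genes, glucocorticoid-responsive genes, lymphoid priming and plasmacytoid dendritic cells, with positive medians, and of DNA replication and megakaryocytes, with negative ones. Among the positive lists, the lowest median under an alternative ran from 0.0021 for glucocorticoid-responsive genes to 0.41 for plasmacytoid dendritic cells. The negative medians came as near to 0 as -0.016 for DNA replication and -0.14 for megakaryocytes. All alternatives use the same libraries or a part of them.

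More genes had a wide spread with antibody, though the median gene did not. The median SD of log2 CPM was 0.2865 with antibody and 0.2998 with LPS. The SD across the 3 libraries was above 1 for 1139 genes (7.63%) with antibody and for 399 genes (2.67%) with LPS. Between pairs of the 6 libraries, the greatest distance was between antibody libraries 1 and 3 (root mean square log2 difference 1.05), and the smallest was between LPS library 2 and antibody library 2 (0.467). The first principal component of the 6 libraries, with 45.0% of the variance, ran from antibody library 1 to antibody library 3 with all LPS libraries between them, and the second, with 23.1%, set LPS library 1 apart. Leaving out antibody library 1 left 0 genes called and 159 at an unadjusted p below 0.05, and leaving out antibody library 2 gave 0 and 964.

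The antibody contrast at 24 h was set against that at 72 h, which has no library in common with it. The difference between the effects passed the threshold for 947 genes (6.35%), 346 with the higher effect at 24 h and 601 with the higher effect at 72 h. In a fit of the compared groups only the count was 205, and adding a replicate block to that fit left 0, so no call of a difference between times, for any gene named here, held under the block. The labels do not say that equal numbers pair libraries, and antibody libraries 1, 2 and 3 had correlations of 0.723, -0.022 and 0.697 with their same-numbered libraries of the other time. LPS libraries 1, 2 and 3 had correlations of 0.048, -0.289 and 0.061. These are deviations from a mean of 3 libraries, so the values within a group are not independent. With upper-quartile scaling the counts of 346 and 601 became 440 and 435, and the median over all genes moved from -0.011 to 0.092. Single libraries moved the count: it was 258 and 494 without LPS libraries 1 and 2 at 72 h, 535 without antibody library 3 at 72 h, 497 without LPS library 3 at 24 h, and 388, 1579 and 362 without antibody libraries 1, 2 and 3 at 24 h. For Il10ra the effect was 1.07 at 24 h and -1.05 at 72 h (edgeR adjusted p = 0.0570 at 72 h), and the difference of 2.12 passed (edgeR adjusted p = 0.0258). At 72 h Il10ra was at 84.5, 78.3 and 87.0 CPM with LPS and 59.9, 27.7 and 32.8 CPM with antibody, so that the antibody libraries were the lower ones at 72 h. For Il10rb the effects were 0.25 and -0.93 (edgeR adjusted p = 0.0157 at 72 h), with a difference of 1.18 (edgeR adjusted p = 0.0452). Scpep1, Tcn2, Pld4 and Unc93b1, each higher in all antibody libraries at 24 h, were lower with antibody at 72 h, by -0.80, -0.79, -1.76 and -0.88 on the log2 scale (edgeR adjusted p between 0.00484 and 0.0430). Their differences between times all passed (edgeR adjusted p between 0.0104 and 0.0209). These genes were chosen by their 24 h values, which enter the difference, so passing is not independent support. For Xdh and Lair1 the estimates were positive at both times, and the differences of 0.55 and 0.078 did not pass.

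Among the genes with the smallest p for this difference, Lat2, Lsp1 and Cyth4 had the higher effect at 24 h, and Ncl, Psmd1 and Gmps the higher effect at 72 h. Lsp1, an actin-binding protein of leukocytes, had an effect of 0.59 at 24 h and -1.48 at 72 h (difference 2.07, SE 0.332, edgeR adjusted p = 0.00831). Lat2, an adaptor of immune receptors, had 0.24 and -1.32, and Cyth4, a guanine nucleotide exchange factor of ARF proteins, had 0.35 and -1.20. The 24 h part of these differences was the smaller part in each. Its 95% interval was 0.091 to 1.09 for Lsp1, -0.077 to 0.57 for Lat2 and -0.032 to 0.73 for Cyth4. The 72 h part passed the threshold on its own in each. Ncl had -0.35 at 24 h and 1.24 at 72 h (difference -1.59, edgeR adjusted p = 0.00831). Psmd1, a subunit of the 26S proteasome, had -0.18 and 0.97, and Gmps, which makes GMP, had -0.18 and 0.93. Beside the 6.35% of all genes that passed the test of the difference, 7 of 12 genes of the amino acid stress response, 4 of 10 of the Myc network, 3 of 9 of MHC class II, 2 of 8 of niche retention and homing, 3 of 17 of IL-10R and STAT3 signalling and 3 of 20 cytokine receptors did. Of the other lists, 5 had 1 such gene and 23 had 0, among them the 20 interferon genes and the 15 GTPases. Across the 14920 genes the effects at the 2 times had a Pearson correlation of 0.0098 and a Spearman correlation of -0.167, given as a description, since genes are not independent replicates.

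**Figure D5:**
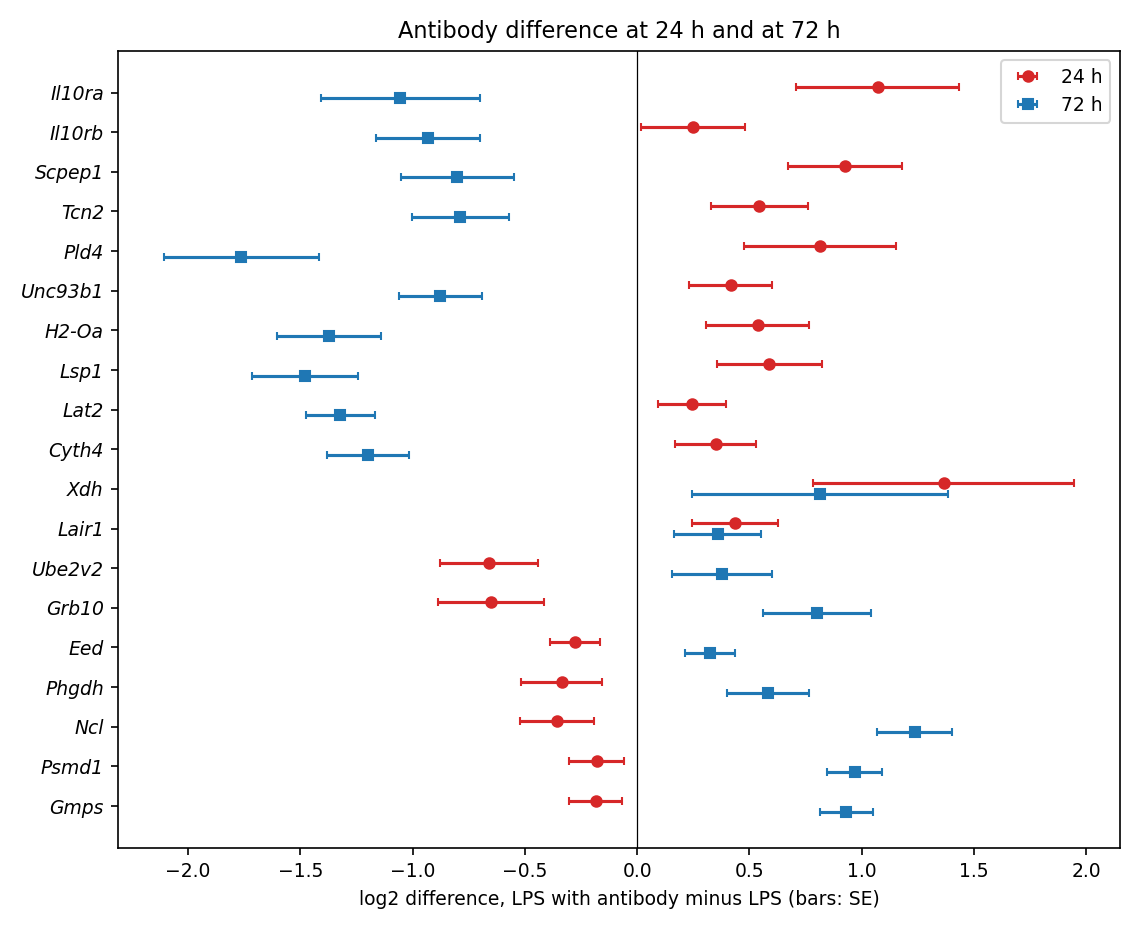
The log2 difference between LPS with antibody and LPS is on the x axis for 19 named genes at 24 h (red circles) and 72 h (blue squares), with bars of 1 SE. Il10ra and Scpep1 are above 0 at 24 h and below 0 at 72 h, while Ncl, Psmd1 and Gmps range from -0.35 to -0.18 at 24 h and from 0.93 to 1.24 at 72 h.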

How the data were processed

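Polyadenylated RNA of sorted HSPC was sequenced in 17 libraries, grouped by their titles. The authors deposited raw counts of reads per gene symbol. Per the submitters' processing notes, HISAT2 2.2.0, featureCounts 2.1.1 of Subread, R 4.3.2, DESeq2 and GRCm38 were used. The annotation, strandedness, read filters and handling of reads shared by similar genes are not given in the sources used here, so counts of near-identical and overlapping genes are uncertain. There were 0 columns without a label.

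Counts were tested with edgeR 4.0.16 in R 4.3.3: filterByExpr (minimum count 10, minimum total 15), TMM factors, and 1 quasi-likelihood fit of all 17 libraries with a mean per group. P-values were adjusted by Benjamini-Hochberg over the 14920 genes, with a threshold of 0.05, and the script was tested on simulated data. SE is the absolute log2 difference divided by the square root of F. CPM uses the TMM-scaled total, and log2 CPM a prior count of 2. Depth of the 24 h libraries was 12989621 to 16006001 counts.

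The members and the 34 gene lists were chosen with earlier results of these data known. Named genes are a panel of 24, the 8 with the smallest unadjusted p in each direction among well expressed genes whose groups do not overlap, the member with the smallest p of each list, DESeq2's call, and the 3 per direction with the smallest p for the difference between times. Of 74 such genes, 67 are used and the others are not reported here, and further list members were picked to show a list after their values were seen. Alternatives were DESeq2 1.42.0, its size factors, upper-quartile factors, voom with quality weights in limma 3.58.1, no filter, the compared groups only, a replicate block and each library left out. Promoters are from RefSeq tables of GRCm38.p6, of which 10 of the 15 GTPase genes matched by symbol, so no motif count is given for that list.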

Additional observations from a re-analysis of the deposited data

Results flagged for a closer look

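The antibody effect differed between 24 h and 72 h for 947 genes by edgeR's test of the difference. With the replicate number as a block in a fit of the compared groups, 0 genes passed that test. Of the genes named here, 16 passed it without the block. The effect at 24 h was the higher one, by a log2 difference of 2.12 for Il10ra, 1.18 for Il10rb, 1.73 for Scpep1, 1.33 for Tcn2, 2.58 for Pld4, 1.29 for Unc93b1, 1.91 for H2-Oa, 1.57 for Lat2, 2.07 for Lsp1 and 1.55 for Cyth4. It was the lower one, by -1.45 for Grb10, -0.60 for Eed, -0.92 for Phgdh, -1.59 for Ncl, -1.15 for Psmd1 and -1.12 for Gmps. Lat2, Lsp1, Cyth4, Ncl, Psmd1 and Gmps were chosen by this test. Scpep1, Tcn2, Pld4, Unc93b1, Grb10 and Eed were chosen by their p at 24 h and by groups that did not overlap at 24 h. H2-Oa, Phgdh, Ncl and Il10ra had the smallest p at 24 h of their lists. Il10ra and Il10rb were in the panel. The 24 h values enter this test, so for genes chosen by them passing is not independent support.

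In the PBS group, the only one with more than 3 libraries, 1 library stood apart from the other 4 for 8 of 67 genes examined, where chance flags about 1 in 20. That library was found gene by gene and was not the same for all genes. It was at 26.9 CPM for Tlr4, 1.61 CPM for Cxcl10, 824.7 CPM for Cd34, 47.5 CPM for Birc3, 157 CPM for Fn1, 57.1 CPM for Siglech, 3.94 CPM for Cdh5 and 33.5 CPM for BC018473. For Cxcl10 the library was the lowest of the group, and for the other 7 genes the highest. Across whole lists, PBS library 2 stood highest in some. Late neutrophil markers summed to 1722 CPM there, against 39.4 to 276 CPM in the other 4. Monocyte and macrophage markers summed to 4616 CPM against 873 to 1743 CPM, and plasmacytoid dendritic cell markers to 663 CPM against 376 to 463 CPM. PBS ranges that include this library are wider for such genes. The PBS libraries enter the 24 h contrast only through the shared estimate of spread.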

How the results depend on the processing

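No alternative other than DESeq2, which called 1 gene, brought a gene past the threshold at 24 h. The count was 0 with DESeq2 size factors, upper-quartile factors, no filter on low counts, voom with quality weights, a fit of the compared groups only, the replicate block and each library left out (lowest 0, highest 0), with 66 to 964 genes at an unadjusted p below 0.05. At 72 h the count moved from 2256 to 4433 with voom, 911 with the compared groups only and between 797 and 2232 with a library left out. The number of genes that differed between the times moved from 947 to 617 without a filter, 1673 with DESeq2, 1585 with voom, 205 with the compared groups only and between 258 and 1579 with a library left out, while upper-quartile factors moved the share with the higher effect at 24 h from 36.5% to 50.3%. The causes were not tested.

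Same-numbered LPS and antibody libraries at 24 h did not deviate from their group means together (correlations -0.047, -0.043 and -0.365), so the numbers were not taken to pair them. With the replicate block in the fit 284 genes were called at 72 h, and 0 differed between the times (3003 at an unadjusted p below 0.05). Antibody libraries numbered 1, 2 and 3 at 24 h and at 72 h had correlations of 0.723, -0.022 and 0.697, and LPS libraries 0.048, -0.289 and 0.061.

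For 67 named genes and 13 alternatives each, 834 of 871 log2 differences kept their sign and their side of the threshold, 36 changed sign and 1 newly passed. Sign changes were 7 with voom, 4 with the block and 25 with a library left out, 12 of these without antibody library 1, and 49 genes had none. With voom the difference was -0.094 for Cxcl10, -1.06 for Irf7, -0.136 for Kit, -0.074 for Mki67, 0.68 for S100a8, -0.76 for Gata1 and -2.60 for Hba-a1. With the replicate block it was -0.206 for Irf7, 0.031 for Cdkn1a, -0.48 for Gata1 and -1.04 for Hba-a1. With a library left out the differences ranged across 0 for Il10rb (-0.030 to 0.40), Bcl3 (-0.31 to 0.034), Tlr4 (-0.25 to 0.073), Cd14 (-0.38 to 0.42), Nfkbia (-0.076 to 0.65), Tnfaip3 (-0.028 to 0.77), Cxcl10 (-0.83 to 2.11), Irf7 (-1.26 to 1.28), Gbp2 (-0.28 to 3.56), Kit (-0.12 to 0.31), Cd34 (-0.43 to 0.21), Hlf (-0.36 to 0.70), Mki67 (-0.11 to 0.22), Cdkn1a (-0.23 to 0.32), S100a8 (-2.01 to 0.13), Gata1 (-1.18 to 0.73), Hba-a1 (-2.69 to 1.56) and Stat2 (-0.19 to 1.31). Depth limits genes of few reads, such as Il10, which could not be tested, and Il12b, for which no change passed.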

Other observations

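Within the antibody group at 24 h, 666 genes were at least 4-fold higher in library 1 than in library 3, and 137 the other way. The genes below were picked from that gap after the values were seen, so they are a description of these 2 libraries. Besides interferon and erythroid genes, Saa3, an acute-phase protein, was at 225, 69.5 and 0.569 CPM in antibody libraries 1, 2 and 3 and 132, 13.7 and 133 CPM in the LPS libraries, against 0.172 to 31.1 CPM in PBS. Cfb, complement factor B, was at 353, 56.5 and 3.41 CPM with antibody and 48.2, 12.4 and 62.1 CPM with LPS, with reads that may be shared with the overlapping Gm20547. In the other direction, Ptgr1, a prostaglandin reductase, was at 18.6, 26.5 and 111 CPM with antibody and 68.8, 37.5 and 21.6 CPM with LPS. Adgrl4, an adhesion receptor, was at 66.6, 153 and 306 and 101, 210.3 and 130.3 CPM, and Lgals1, galectin-1, at 150.4, 334 and 556 and 471, 347 and 192 CPM. Antibody library 1 was lowest and library 3 highest for these 3 genes within the antibody group.

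Over all tested genes, 35 were at least 2-fold higher in antibody library 1 than in every other library of the series, and 9 were at least 2-fold lower in antibody library 3 than in every other. Counts of all 13 mitochondrial protein genes in the table were 0 in every library, so their share cannot be used to compare RNA quality.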
